A study of Mus musculus with 3 samples.

Results

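The T cell receptor (TCR) β chain genes of the TRBJ1 cluster, TRBJ1-1 to TRBJ1-6, were followed in T cells that had infiltrated the sciatic nerves of mice with autoimmune neuropathy. Members were taken by name: every productive β chain (TRB) contig of a cell whose J gene was named TRBJ1-1 to TRBJ1-6. They made up 1321 of the 3872 TRB rearrangements and 2185 of the 6597 cell and TRB pairs of the series, where a rearrangement is 1 V gene, 1 nucleotide CDR3 and 1 J gene within a library, and a cell counts once for each of its rearrangements. All samples came from 1 group, neuropathic NOD.AireGW/+ mice, which carry 1 copy of the GW allele of Aire (the autoimmune regulator, needed in the thymus for tolerance of self) on the diabetes-prone NOD background. CD45+ cells, that is all immune cells and not T cells alone, were sorted from perfused and digested nerves and their TCR transcripts were read by droplet-based scTCR-Seq. The labels used here give neither the age nor a non-neuropathic control, so no condition could be compared. There were 3 libraries: replicates 1 and 2 held 1 mouse each and replicate 3 pooled 2 mice, which could not be separated.

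Replicate 1 held 1302 TRB rearrangements in 2253 cells with a TRB, replicate 2 held 2033 in 3361 and replicate 3 held 537 in 642, with 6490, 9803 and 1154 unique molecular identifiers (UMIs) on TRBJ1 contigs. Replicate 3 was the shallowest, with a median of 5 TRB UMIs per TRBJ1 cell against 7 and 6. The largest rearrangement of replicate 1 used TRBJ2-4 and filled 365 cells, which lowers every other share by cell in that library. A barcode was shared between libraries 10 times among 6634 cells, and in 0 of these cases was the TRB the same in both. Intervals are exact Clopper-Pearson 95% intervals over rearrangements or cells of 1 library. They cover counting error only, and cells of 1 clone are not independent.

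A β chain gene is assembled in the thymus by joining a D to a J segment and then a V segment to that DJ. The mouse locus holds 2 D-J-C cassettes in a row, so that the TRBJ1 genes lie after TRBD1 and before TRBC1, and TRBD2, the TRBJ2 genes and TRBC2 follow. The J segment gives the end of the CDR3, the loop that meets the peptide, and all of the framework that joins it to the constant region. Each J is cut at a recombination signal sequence, a nonamer, a spacer and a heptamer that end at the coding bases, and the coding end is then trimmed and filled before it is joined.

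The 6 germline segments are shown because each later value is set against them. They were read from GRCm38 (mm10) at RefSeq coordinates, plus strand, 5′ to 3′. The 28 bases of the signal are in lower case, with the heptamer last, and the coding bases are in capitals.
TRBJ1-1 (chr6:41533864-41533911): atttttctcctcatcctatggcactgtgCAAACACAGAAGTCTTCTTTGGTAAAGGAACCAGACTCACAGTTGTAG
TRBJ1-2 (chr6:41534001-41534048): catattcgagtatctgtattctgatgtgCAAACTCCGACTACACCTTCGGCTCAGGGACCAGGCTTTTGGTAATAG
TRBJ1-3 (chr6:41534323-41534372): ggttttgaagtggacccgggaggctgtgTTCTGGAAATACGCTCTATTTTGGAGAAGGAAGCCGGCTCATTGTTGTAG
TRBJ1-4 (chr6:41534811-41534861): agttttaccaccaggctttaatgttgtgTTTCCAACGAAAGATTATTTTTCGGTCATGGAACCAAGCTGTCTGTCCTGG
TRBJ1-5 (chr6:41535084-41535133): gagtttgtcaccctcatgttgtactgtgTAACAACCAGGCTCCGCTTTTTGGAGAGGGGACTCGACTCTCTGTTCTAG
TRBJ1-6 (chr6:41535554-41535606): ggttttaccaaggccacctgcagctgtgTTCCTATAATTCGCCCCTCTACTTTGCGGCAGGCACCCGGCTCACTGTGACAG
The first segment begins 651 bases after TRBD1 and the last 2341 bases after it. The heptamer of TRBJ1-1 matched CACTGTG, the usual heptamer as read on this strand, at 7 of 7 bases. That of TRBJ1-5 matched at 6, those of TRBJ1-3 and TRBJ1-6 at 5, and those of TRBJ1-2 and TRBJ1-4 at 4. All 6 heptamers ended in TGTG. The coding part that falls inside the CDR3 ranged from 20 bases in TRBJ1-1 and TRBJ1-2, through 22 in TRBJ1-3 and TRBJ1-5 and 23 in TRBJ1-4, to 25 in TRBJ1-6. A TRBJ1-7 segment is annotated downstream of these, and 0 contigs carried its name.

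Among TRB rearrangements the TRBJ1 cluster had a share of 33.0% in the first library (30.5% to 35.7%), 35.4% in the second (33.3% to 37.5%) and 32.0% in the third (28.1% to 36.2%), or 33.5% ± 1.71 (SD, n = 3). By cell the shares were 30.0%, 35.4% and 31.9%, or 32.4% ± 2.75. The libraries lay further apart by cell than by rearrangement. With the largest TRB rearrangement of each library left out, the mean share by cell was 34.1% ± 3.22.

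TRBJ1-1 was the most used, with 9.83%, 10.5% and 12.1% of rearrangements in replicates 1 to 3 (mean 10.8% ± 1.16). TRBJ1-4 followed with 9.83%, 7.62% and 7.26% (8.24% ± 1.39). TRBJ1-2 had 4.15%, 5.71% and 5.03% (4.96% ± 0.781). These 3 values of TRBJ1-2 all lay below those of TRBJ1-4. TRBJ1-3 had 4.61%, 4.62% and 3.35% (4.19% ± 0.730). TRBJ1-6 had 2.07%, 3.89% and 2.79% (2.92% ± 0.912). TRBJ1-5 was the least used, with 2.53%, 3.0% and 1.49% (2.34% ± 0.774). Between neighbours in this order, only TRBJ1-4 and TRBJ1-2 had ranges that did not overlap, with a mean gap of 3.28 points ± 2.09. TRBJ1-1 and TRBJ1-4 were level in replicate 1, with 128 rearrangements each, and TRBJ1-1 led in the other two.

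**Figure D1:**
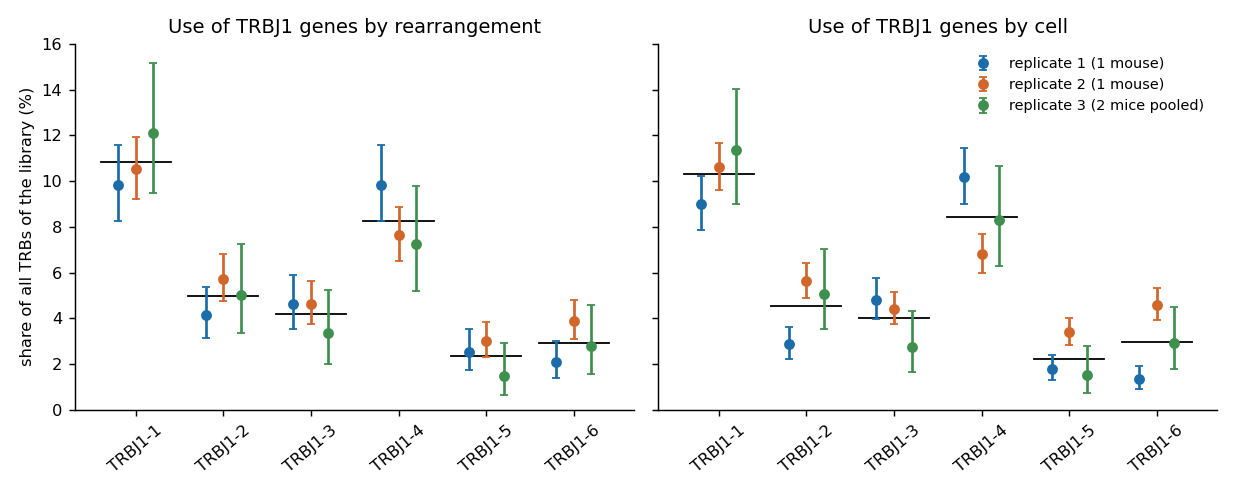
Share of all TRBs of a library (%) that used each TRBJ1 gene, counted by rearrangement (left) and by cell (right). Points are libraries, bars are exact 95% intervals and black lines are means over the 3 libraries; TRBJ1-1 and TRBJ1-4 stand above the other 4 genes in every library.

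Counted by cell, the order was led by the same pair, and single genes differed more between libraries. TRBJ1-6 had 1.35% of the cells of replicate 1 (0.927% to 1.90%), 4.58% of replicate 2 (3.92% to 5.32%) and 2.91% of replicate 3 (1.76% to 4.51%). The intervals of replicates 1 and 2 were apart, as they were by rearrangement (1.37% to 3.0% against 3.09% to 4.82%). TRBJ1-2 had 2.87%, 5.62% and 5.06% of the cells, with the value of replicate 1 below the others. TRBJ1-4 stood the other way, with 10.2%, 6.79% and 8.28%. Within the cluster alone, TRBJ1-4 made up 29.8% of the TRBJ1 rearrangements of replicate 1 and 21.6% and 22.7% of the others.

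Rearrangements of 2 or more cells were set against those of a single cell, to see whether expanded clones used the cluster differently. In replicate 1, TRBJ1 was used by 34.2% of the 266 expanded and 32.7% of the 1036 single rearrangements, a difference of 1.49 points (Newcombe 95% interval -4.68 to 8.01). In replicate 2 the shares were 38.9% of 450 and 34.4% of 1583, a difference of 4.52 points (-0.469 to 9.65). In replicate 3 they were 26.9% of 67 and 32.8% of 470, a difference of -5.90 points (-16.0 to 6.45). The direction was not the same in the 3 libraries, the mean difference was 0.0373 points ± 5.36 (SD, n = 3), and the exact two-sided sign-flip permutation test over libraries gave p = 1. That test cannot go below 0.25 with 3 libraries. With over 5 cells in place of 2 or more, the differences were 4.49 points (-8.67 to 19.7), 2.34 (-7.72 to 13.6) and 17.2 (-23.5 to 58.0), the last from only 2 rearrangements, with a mean of 8.02 points ± 8.05 and an exact permutation p = 0.25. Each of these intervals included 0. Since a larger library finds more cells of a clone, the number of expanded rearrangements also follows library size.

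Among single genes, the share of rearrangements that were expanded was 24.2%, 23.8% and 10.8% for TRBJ1-1, 23.4%, 20.6% and 7.69% for TRBJ1-4, and 23.3%, 25.5% and 0% for TRBJ1-3, where 0 of 18 rearrangements of replicate 3 had a second cell (upper bound of the interval 18.5%). TRBJ1-5 had 9.09% in replicate 1 (1.92% to 24.3%), 32.8% in replicate 2 (21.3% to 46.0%) and 2 of only 8 rearrangements in replicate 3. The whole cluster had 21.2%, 24.3% and 10.5%, and TRBJ2 had 20.1%, 20.9% and 13.4%.

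**Figure D2:**
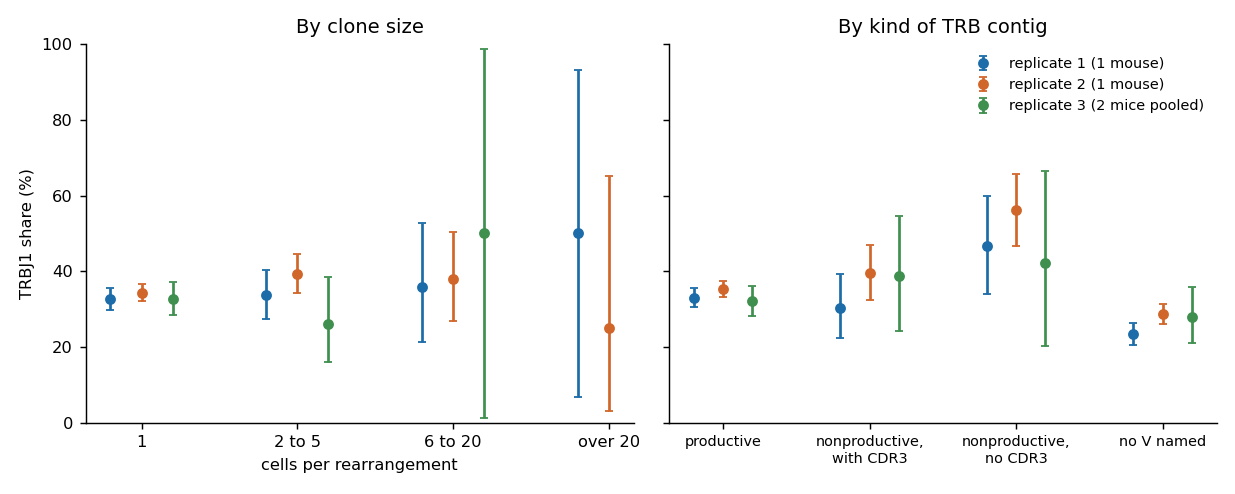
TRBJ1 share (%) among productive rearrangements by the number of cells that carried them (left) and among kinds of TRB contig (right), per library with exact 95% intervals. Replicate 3 had no rearrangement of over 20 cells; on the right, of the 4 kinds drawn, nonproductive TRBs without a CDR3 lay highest, at 46.8%, 56.3% and 42.1%, and contigs with no V named lay lowest.

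The CDR3 nucleotide sequences below are the largest TRBJ1 rearrangement of each gene and the 3 largest of each library. They are shown because they hold the most cells and because the cut into the J can be read in them. Capitals mark the bases that match the germline J. In replicate 3 the third place was shared by 4 rearrangements of 3 cells each, and the first of them in the alphabet is shown.
TRBV13-3 with TRBJ1-4 in 30 cells of replicate 1: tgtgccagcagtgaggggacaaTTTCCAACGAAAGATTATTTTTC
TRBV16 with TRBJ1-1 in 23 cells of replicate 1: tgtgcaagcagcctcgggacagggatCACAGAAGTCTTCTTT
TRBV13-1 with TRBJ1-4 in 18 cells of replicate 1: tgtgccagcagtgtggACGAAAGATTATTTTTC
TRBV1 with TRBJ1-1 in 36 cells of replicate 2: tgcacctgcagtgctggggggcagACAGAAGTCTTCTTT
TRBV2 with TRBJ1-6 in 29 cells of replicate 2: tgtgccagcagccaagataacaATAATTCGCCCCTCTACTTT
TRBV10 with TRBJ1-3 in 19 cells of replicate 2: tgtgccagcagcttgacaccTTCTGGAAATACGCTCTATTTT
TRBV31 with TRBJ1-2 in 14 cells of replicate 2: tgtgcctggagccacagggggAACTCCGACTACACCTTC
TRBV19 with TRBJ1-5 in 11 cells of replicate 2: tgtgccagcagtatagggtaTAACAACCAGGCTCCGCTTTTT
TRBV19 with TRBJ1-4 in 14 cells of replicate 3: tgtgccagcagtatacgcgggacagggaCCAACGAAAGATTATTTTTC
TRBV12-1 with TRBJ1-2 in 4 cells of replicate 3: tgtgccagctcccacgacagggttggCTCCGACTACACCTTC
TRBV13-3 with TRBJ1-2 in 3 cells of replicate 3: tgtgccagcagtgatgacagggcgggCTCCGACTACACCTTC
The largest, the TRBV1 clone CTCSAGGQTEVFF of replicate 2, filled 36 cells, or 1.01% of the TRB cells of its library (0.706% to 1.39%), and had lost 5 bases of TRBJ1-1. Of these cells 34 carried the α chain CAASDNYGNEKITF and 2 had no α chain read. The TRBV13-3 clone of replicate 1 filled 30 cells (1.27%) and kept the TRBJ1-4 end whole, and 20 of its cells carried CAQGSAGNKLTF. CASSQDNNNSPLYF filled 29 of the 164 TRBJ1-6 cells of replicate 2 and had lost 5 bases. The TRBV19 clone of replicate 3 filled 14 of its 54 TRBJ1-4 cells, which is 2.15% of the TRB cells of that library (1.18% to 3.58%). The largest TRBJ1-3, TRBJ1-2 and TRBJ1-5 rearrangements were also from replicate 2, with 19, 14 and 11 cells. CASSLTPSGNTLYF, the TRBJ1-3 one, had no α chain in 11 of its 19 cells, and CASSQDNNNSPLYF had none in 7 of 29. In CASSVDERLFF, a clone of 18 cells in replicate 1, 6 bases of TRBJ1-4 were gone and no run of 6 D bases was left.

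J trimming was the number of coding bases missing from the 5′ end of the J inside the CDR3, from the longest exact match of the CDR3 end to the germline segment. A base that matches by chance counts as J and makes a loss too small, whereas a mismatch inside the J makes it too large. Only 3 of the 1321 rearrangements matched fewer than 6 J bases, and 2 of these matched none. TRBJ1-3 lost the fewest, with means of 1.63, 1.26 and 1.61 bases in replicates 1 to 3, and its end was whole in 50.0% of rearrangements in each library. TRBJ1-2 lost 1.72, 1.72 and 1.93. TRBJ1-1 lost 2.70, 2.75 and 3.0, TRBJ1-5 lost 3.03, 3.05 and 2.88, and TRBJ1-4 lost 3.70, 3.83 and 3.38. TRBJ1-6 lost the most in replicates 1 to 3, at 4.30, 3.90 and 4.80. The ranges of TRBJ1-2 and TRBJ1-3 lay below those of the other 4 genes.

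The form of the losses differed as well. More than 4 bases were gone in 3 of 197 TRBJ1-2 rearrangements and in 4 of 172 of TRBJ1-3. For TRBJ1-1 this was 79 of 407 (19.4%), for TRBJ1-5 25 of 102 (24.5%), for TRBJ1-4 116 of 322 (36.0%) and for TRBJ1-6 58 of 121 (47.9%). TRBJ1-4 showed 3 heights, with 61 rearrangements whole, 57 short of 3 bases and 46 short of 7, and only 10 had lost more than 7. TRBJ1-6 had 26 whole and only 2 short of 1 base, then 20 short of 5 and 16 short of 7. A loss of over 4 bases by TRBJ1-4 was about as frequent in each library, at 34.4%, 37.4% and 35.9%.

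**Figure D3:**
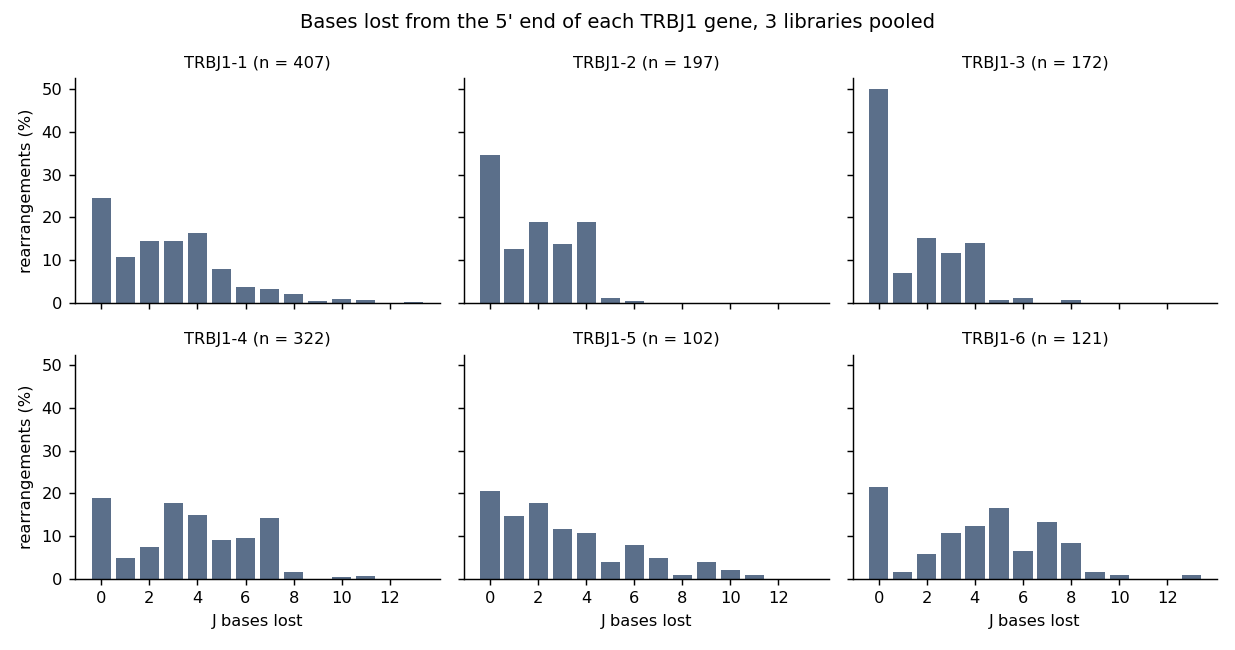
Percentage of the rearrangements of each TRBJ1 gene by the number of bases lost from the 5′ end of the J, pooled over the 3 libraries (n is the number of rearrangements; 3 with losses over 13 bases are not drawn). TRBJ1-2 and TRBJ1-3 stop almost entirely at 4 bases, whereas TRBJ1-4 and TRBJ1-6 reach 7 and 8.

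At the protein level these cuts set how much of the germline end was kept. The whole end SGNTLYF closed 101 of 172 TRBJ1-3 CDR3s (58.7%) and NSDYTF closed 130 of 197 of TRBJ1-2 (66.0%). NTEVFF closed 204 of 407 of TRBJ1-1 (50.1%), NNQAPLF 36 of 102 of TRBJ1-5 (35.3%), SNERLFF 103 of 322 of TRBJ1-4 (32.0%) and SYNSPLYF 29 of 121 of TRBJ1-6 (24.0%). Counted by nucleotides, the end was whole in 18.9% of TRBJ1-4, 20.6% of TRBJ1-5 and 21.5% of TRBJ1-6 rearrangements. The longer CDR3s were those with TRBJ1-6, at 14.6, 14.3 and 14.4 amino acids, TRBJ1-3, at 14.5, 14.3 and 14.3, and TRBJ1-4, at 14.2, 14.2 and 14.4. They were shortest with TRBJ1-1, at 13.7, 13.3 and 13.4, and TRBJ1-2, at 13.5, 13.7 and 13.8.

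**Figure D4:**
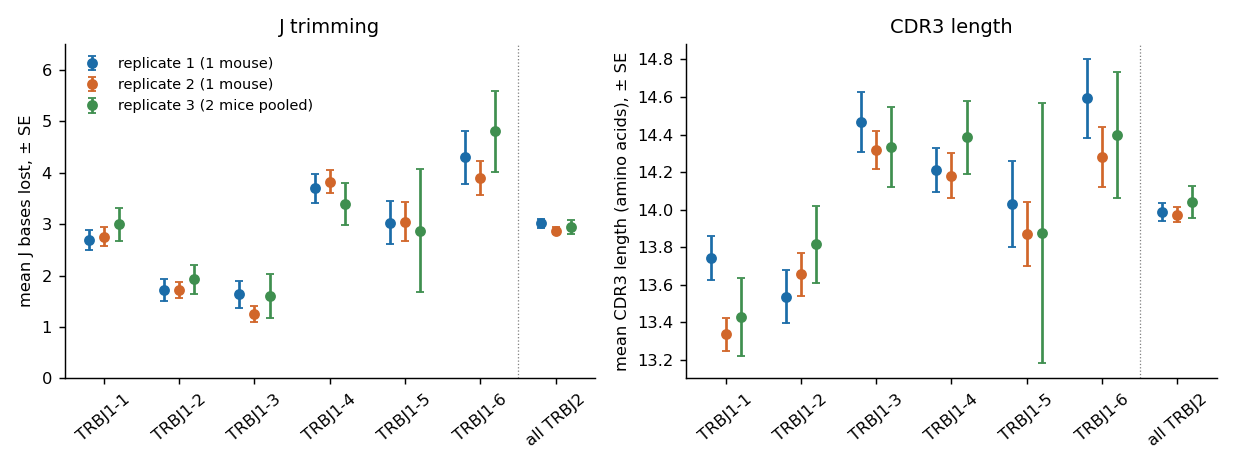
Mean J bases lost (left) and mean CDR3 length in amino acids (right) for each TRBJ1 gene and for all TRBJ2 genes together, per library, with standard errors over rearrangements. The 6 genes spread on both sides of the TRBJ2 mean in both panels, and the length axis does not start at 0.

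TRBJ1 and TRBJ2 were then compared as clusters within each library. Mean CDR3 length with TRBJ1 minus that with TRBJ2 was 0.0452 ± 0.0793, -0.127 ± 0.0647 and -0.134 ± 0.139 amino acids (SE over rearrangements) in replicates 1 to 3, with p = 0.5 in the exact sign-flip permutation test. J bases lost differed by -0.170 ± 0.152, -0.103 ± 0.120 and -0.0153 ± 0.234, with an exact p = 0.25, the smallest possible here. The make-up of the CDR3 differed more than its length. TRBJ1 CDR3s held 1.11 ± 0.168, 1.03 ± 0.133 and 0.585 ± 0.263 more J bases than TRBJ2 CDR3s. The J bases kept are the germline CDR3 part minus the loss, so this gap also carries the germline lengths. That part has 20 to 25 bases in TRBJ1 genes and 19 to 23 in TRBJ2 genes, with 19 in TRBJ2-7, the most used. How much of the gap the germline lengths make up was not tested. For the bases outside the J match, which come from V, D and added bases, TRBJ1 minus TRBJ2 was -0.976 ± 0.220, -1.41 ± 0.176 and -0.987 ± 0.367, with the same direction in the 3 libraries (exact permutation p = 0.25 for both). Each TRBJ1 gene had a lower mean of these other bases over the libraries (22.6 to 23.4) than each TRBJ2 gene (23.5 to 24.6). Within replicates 1 and 2 the genes overlapped. In replicate 1 TRBJ1-1 had 23.9 and TRBJ2-2 had 23.2, and in replicate 2 TRBJ1-4 had 23.4 and TRBJ2-4 had 22.4. In replicate 3 the highest TRBJ1 mean was 23.54 (TRBJ1-4) and the lowest TRBJ2 mean was 23.59 (TRBJ2-5).

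D segments were read by the longest run of at least 6 D bases outside the J match. TRBD1 has 12 bases and TRBD2 has 14, and both are mostly G. Among TRBJ1 rearrangements TRBD1 was the longer match in 54.7%, 48.7% and 51.2%, TRBD2 in 3.95%, 4.31% and 4.07%, and no such run was found in 39.1%, 44.1% and 43.0%. Because TRBD2 lies after all TRBJ1 genes, its matches there are best taken as errors of the match and not as use of TRBD2. Among TRBJ2 rearrangements TRBD1 was matched in 24.2%, 27.6% and 21.9%, TRBD2 in 45.9%, 42.4% and 48.2%, and none in 28.2%, 27.9% and 29.3%. Within rearrangements matched to TRBD1, TRBJ1 minus TRBJ2 in bases outside the J was -0.0879 ± 0.327, -0.247 ± 0.246 and 0.264 ± 0.506. Within those with no D match it was -0.0984 ± 0.361, 0.383 ± 0.265 and 0.325 ± 0.521. Both classes hold fewer rearrangements than the whole, so their SEs are larger, and rearrangements matched to TRBD2 are in neither. Whether the D segment accounts for the difference over all rearrangements was not tested. The classes were made from part of the bases that are counted, and this split was chosen after the values were seen.

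The names that the authors' software gave to the other segments followed the order of the locus. Of the TRBJ1 contigs of replicates 1 to 3, 701 of 710, 1254 of 1267 and 206 of 208 were named TRBC1, 0 were named TRBC2, and the rest had no C named. A D gene was named on few contigs: TRBD1 on 185, 246 and 52, and TRBD2 on 1, 0 and 0. The exception joined TRBV13-2, TRBJ1-2 and TRBC1 and was read in 1 cell of replicate 1 with 9 UMIs. TRBJ2 contigs were named TRBC2 on 1650, 2302 and 440, and 0 were named TRBC1.

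The TRBJ1 share varied between V genes. Among the 19 V gene names with at least 30 rearrangements, the TRBJ1 share over the libraries ran from 24.1% of 79 TRBV17 and 24.1% of 137 TRBV10 rearrangements to 42.0% of 50 TRBV12-1 rearrangements. Both outer names differed widely between libraries. TRBV17 had 45.5%, 17.8% and 8.33%, and 15.8% of 57 without replicate 1. TRBV12-1 had 26.1%, 50.0% and 63.6%. In replicate 1 both thus stood on the other side of the library's share. TRBV10, TRBV3 and TRBV12-2+TRBV13-2 lay under the share of their library in all 3 libraries. TRBV5, TRBV13-3, TRBV13-2 and TRBV2 lay above it in all 3. These groups were 3 and 4 of the 19 names. Falling on 1 side of the share in all 3 libraries can also arise from counting error, and this was not tested. Some margins were small. TRBV5 had 35.8% in replicate 2 beside the library's 35.4%, and TRBV13-2 had 33.3% of 24 in replicate 3 beside 32.0%. TRBV10 had 21.8%, 27.4% and 20.0%, whereas TRBV2 had 37.1%, 42.4% and 57.1%, the last from 14 rearrangements. TRBV12-2+TRBV13-2 is a combined name that the files give where the 2 genes were not told apart, and its 27.4% stood beside 40.1% for TRBV13-2. With both names taken as TRBV13-2, the share was 28.6% of 185, 35.5% of 324 and 22.4% of 85, which is below the share of the library in replicates 1 and 3 and level with it in replicate 2.

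Single V-J pairs were compared with the number expected from the V and J totals of each library. A pair counted as uneven when it lay on the same side of 1 in all 3 libraries with a summed ratio of at least 1.5 or at most 0.67, and had an expected sum of at least 10. By this rule 9 of 50 TRBJ1 pairs (18%) were uneven, beside 10.4% of all 134 pairs, which include them, and 5.95% of the 84 TRBJ2 pairs. This is a description and no test was run. A fixed ratio limit is passed more easily by counting error where few are expected. The expected sums reached 42.4 among TRBJ1 pairs and 80.1 among TRBJ2 pairs, so these percentages are not like for like. The count of uneven TRBJ1 pairs was 5 without replicate 1, 4 without replicate 2 and 12 without replicate 3. Of the 9, 8 (16% of the 50) were rarer than expected, beside 9.7% of all pairs. TRBV16 with TRBJ1-2 was found 0, 1 and 1 times where 4.11, 7.82 and 2.16 were expected. TRBV19 with TRBJ1-2 was found 2, 3 and 1 times against 4.27, 9.81 and 2.41. TRBV10 was rare with TRBJ1-4 (4 against 11.6 over the libraries) and with TRBJ1-1 (7 against 14.4). TRBV12-2+TRBV13-2, a combined name and not a single V gene, was rare with TRBJ1-4 (17 against 33.1) and with TRBJ1-1 (27 against 42.4). The name TRBV13-2 alone was uneven with neither of these J genes. With both names taken as TRBV13-2, 8 TRBJ1 pairs were uneven in place of 9. Whether the pairs with TRBJ1-4 and TRBJ1-1 still meet the rule under the merged name was not tested singly. The other pairs below 1 were TRBV3 with TRBJ1-1 (9 against 14.5) and TRBV1 with TRBJ1-3 (9 against 13.5). Their ratios, 0.622 and 0.665, and the 0.636 of TRBV12-2+TRBV13-2 with TRBJ1-1 were the nearest to the limit of 0.67. The pair above 1 was TRBV14 with TRBJ1-1, found 4, 13 and 4 times against 2.95, 6.63 and 3.27.

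**Figure D5:**
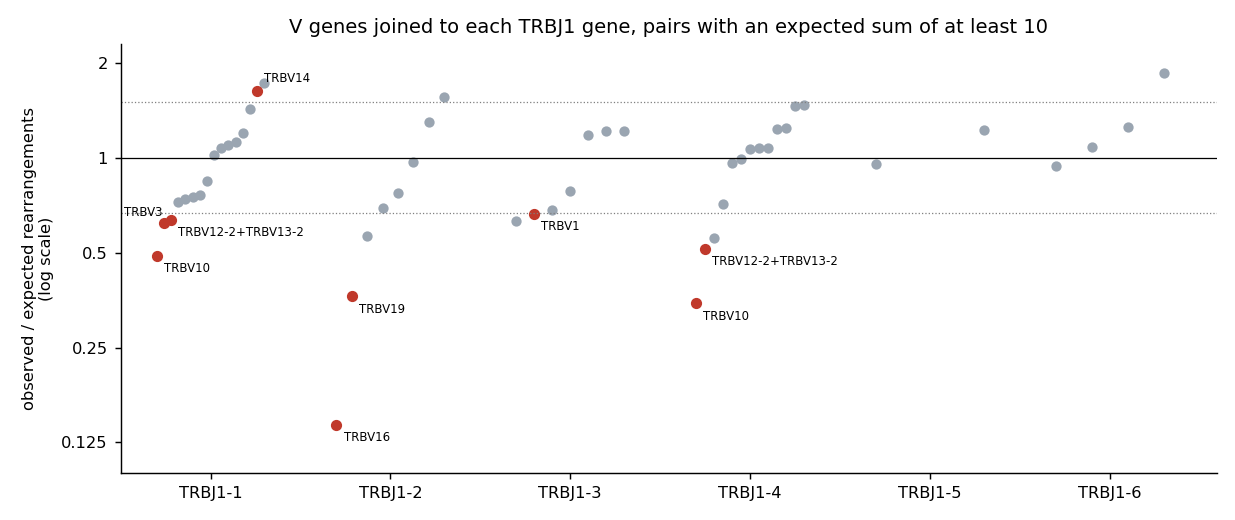
Observed over expected number of rearrangements, on a log scale, for the 50 V genes and TRBJ1 genes with an expected sum of at least 10. Each point is a pair, ordered by its ratio within a gene; red points with the V gene's name are the 9 uneven pairs, and dotted lines mark 1.5 and 0.67.

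The pairs with most rearrangements were TRBV5 with TRBJ1-1 (58 against 40.6 expected), TRBV19 with TRBJ1-4 (39 against 26.7), TRBV13-1 with TRBJ1-1 (38 against 34.6), TRBV1 with TRBJ1-1 (35 against 32.5) and TRBV13-3 with TRBJ1-4 (35 against 23.8). None of these 5 met the rule. The rarity of TRBV16 and TRBV19 with TRBJ1-2 had a counterpart that was chosen after its values were seen, since fewer than 10 were expected. TRBV2 with TRBJ1-2 was found 8, 14 and 3 times against 2.90, 4.85 and 0.704 expected. TRBV12-1 with TRBJ1-2 was found 2, 5 and 4 times against 0.954, 0.913 and 0.553.

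TRBs alike in V gene, J gene and translated CDR3 were found in more than 1 library for 18 TRBJ1 sequences, 0 of them in all 3. These were 3.27%, 2.23% and 3.51% of the distinct TRBJ1 sequences of replicates 1 to 3, beside 3.45%, 2.08% and 2.47% for TRBJ2. The mean difference was 0.338 points ± 0.633 (exact permutation p = 0.75), and the libraries share the same pairs, so the 3 values are not independent. The 5 with most cells were a TRBV29 and TRBJ1-3 sequence of 15 amino acids (7 cells in replicate 1 and 11 in replicate 2), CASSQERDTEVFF (TRBV5 and TRBJ1-1, 5 and 2), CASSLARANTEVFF (TRBV15, TRBJ1-1, 5 and 1), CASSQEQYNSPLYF (TRBV2, TRBJ1-6, 3 and 2) and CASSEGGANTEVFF (TRBV13-1, TRBJ1-1, 3 and 1). The last was level with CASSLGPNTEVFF (TRBV15, TRBJ1-1, 3 and 1) and came first in the alphabet. The TRBJ1-3 sequence was written by 2 nucleotide sequences, 1 in each mouse, that both kept the J end whole. In 5 of the 18 the nucleotide sequence itself was the same in both libraries. TRBJ1-4 gave none of the 18, although it was the second most used gene: 0 of its 128, 155 and 39 sequences recurred, with upper bounds of 2.84%, 2.35% and 9.03%. TRBJ1-1 gave 5.51%, 4.69% and 4.62%.

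Transcript yield and pairing were readouts that the choice of genes did not use. Cells with a single TRB had medians of 7, 6 and 5 TRB UMIs with TRBJ1 and 7, 6 and 4 with TRBJ2 (exact permutation p = 1 for the difference). An α chain was read in 86.6%, 76.0% and 61.7% of TRBJ1 cells and in 80.1%, 76.9% and 61.3% of TRBJ2 cells. The gap in replicate 1 was 6.53 points. With the largest rearrangement of each library left out, the mean gap over libraries went from 2.01 ± 3.97 to -0.0665 ± 2.59 points. Those rearrangements used TRBJ2-4, TRBJ2-1 and TRBJ1-4 in replicates 1 to 3, and their part in the gap of replicate 1 was not tested.

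Cells with 2 productive TRBs numbered 114, 217 and 10. In replicate 1, 15 held 2 TRBJ1 chains, 46 held 1 of each cluster and 53 held 2 TRBJ2 chains. In replicate 2 these were 25, 126 and 66, and in replicate 3 they were 1, 5 and 4. The share of TRBJ1 among these chains was 33.3% (27.2% to 39.9%), 40.6% (35.9% to 45.3%) and 35.0% (15.4% to 59.2%) in turn, beside 30.0%, 35.4% and 31.9% of all TRBs by cell. The latter shares include these cells. The 217 cells of replicate 2 held only 191 distinct pairs of TRBs, so the chains are not independent and the interval is too narrow. Doublets were not removed here, and their part in these counts was not tested.

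Nonproductive TRBs of the same cells were counted as a separate readout, once per V, J and CDR3 or, without a CDR3, once per V, J and clone. TRBJ1 gave 66 of 184 (35.9%), 135 of 294 (45.9%) and 25 of 63 (39.7%) in replicates 1 to 3. The productive share was lower by 2.84 points (Newcombe interval of the difference -10.4 to 4.23), by 10.6 (-16.6 to -4.56) and by 7.65 (-20.6 to 4.21). The direction was the same in the 3 libraries, at the smallest p the exact permutation test allows, 0.25. With at least 3 UMIs the direction was not shared by all 3 (exact permutation p = 0.5). Among those for which no CDR3 was given, TRBJ1 made up 46.8% of 62, 56.3% of 112 and 42.1% of 19. Those with a CDR3, which in the TRBJ1 members held no stop codon and no broken frame, had 30.3% of 122, 39.6% of 182 and 38.6% of 44, and the productive share minus these was 2.70, -4.19 and -6.61 points. How many of them are incomplete reads of working chains was not tested. Among full-length TRBs without a CDR3, TRBJ1 made up 48.9% of 45, 53.7% of 67 and 50.0% of 12.

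Contigs of cells that had a TRBJ gene but no V named went the other way. Unlike the nonproductive TRBs, they were not limited to high-confidence contigs. TRBJ1 gave 202 of 861 (23.5%), 336 of 1174 (28.6%) and 44 of 157 (28.0%) in replicates 1 to 3, and these contigs were not merged by clone. The order of the genes was also another one. TRBJ1-1 was at 2.90%, 1.70% and 5.73% of such contigs, and TRBJ1-5 was at 0.697%, 0.256% and 0.637%. TRBJ1-4 was at 2.79%, 4.26% and 3.82%. TRBJ1-3 had 6.27%, 8.86% and 7.64%, TRBJ1-2 had 7.67%, 6.73% and 5.10%, and TRBJ1-6 had 3.14%, 6.81% and 5.10%. The median such contig had 3 UMIs in replicates 1 and 2 and 2 in replicate 3.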

How the data were processed

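The authors sorted CD45+ cells, made 10X Genomics V(D)J libraries and mapped the reads with Cell Ranger on mm10 (its version is not given in the sources used here). For each assembled contig they deposited counts of UMIs and reads, the V, D, J and C genes and the CDR3. The tables of replicate 1 have fewer columns than those of the other libraries, so the software version may not have been the same. Productive TRB contigs of cell barcodes were used here, and for nonproductive TRBs the high-confidence contigs of the table of all contigs; clonotype and consensus files were not used. Grouping followed the labels, which call the 3 libraries of this 1 condition biological replicates. The 6 genes, the lists and the rules were chosen with earlier results of these data known.

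J, D and C segments were read from GRCm38 at RefSeq coordinates. A D match needed 6 bases. Differences were taken within a library and tested by an exact two-sided sign-flip permutation over libraries. Where nothing was found, up to 3 counts remain possible (0.127%, 0.0838% and 0.460% of the cell and TRB pairs of replicates 1 to 3). Named were all 6 genes, the largest rearrangement of each gene and the 3 largest of each library, the 5 commonest V-J pairs and the uneven ones, and the 5 shared TRBs with most cells. Matching, D calls and V-J ratios were tested on simulated data. There the J match was not always exact and gave, on average, slightly too small a loss. Alternatives were other definitions of a rearrangement, at least 3 UMIs, cells with 1 TRB, other limits for expansion, other J matching, the merged V name and leaving out each library. Software was scipy 1.17.1, pandas 2.3.3, matplotlib 3.10.9 and numpy 2.4.6 in Python 3.11.15. Gene expression, and so the type of T cell, was not analysed here.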

Additional observations from a re-analysis of the deposited data

How the results depend on the processing

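Of 209 values computed under alternatives, 194 kept their direction, or lay within the spread between libraries or, for a count, within 1.5 times of it. Some of these could hardly move, so the tally overstates how much was tried. Shares by cell, UMIs and α chain pairing had the same values under the other definitions of a rearrangement and the merged V name. UMIs and α chain pairing were also taken from cells with 1 TRB from the start. The difference in TRBJ1 share between expanded and single rearrangements, 0.0373 points, became 8.02 with over 5 cells (exact permutation p = 0.25, higher in 3 of 3 libraries), 1.80 with 3 or more cells, -1.19 with at least 3 UMIs and -0.260 without the largest rearrangements (an alternative chosen after seeing the data), and ran from -2.21 to 3.01 as each library was left out. The CDR3 length difference of -0.0720 amino acids became 0.0350 by cell. The mean difference in J bases lost, -0.0958, stayed below 0, from -0.146 to -0.0589. It was -0.0625 ± 0.171 with cells of 1 TRB only (exact permutation p = 0.75). With rearrangements defined by the amino acid CDR3 it was -0.0944 ± 0.0871 (exact permutation p = 0.5). In these settings the direction was not shared by all 3 libraries. The difference in recurring TRBs, 0.338 points, became -0.0513 with cells of 1 TRB only and ran from -0.349 to 0.922 over the left-out libraries. The UMI difference of 0.333 became 0 with at least 3 UMIs and ran from 0 to 0.5. The difference in α chain pairing became -0.0665 without the largest rearrangements and ran from -0.244 (without replicate 1) to 3.48. The exact permutation test cannot go below 0.25 with 3 libraries or 0.5 with 1 left out. The 9 uneven V-J pairs became 14 with an expected sum of at least 5, also chosen after seeing the data, and 5 without replicate 1, 4 without replicate 2 and 12 without replicate 3. The difference between productive and nonproductive TRBs ran from -9.10 to -5.25 over the left-out libraries, and was -2.70 with nonproductive TRBs that have a CDR3 and -14.9 with those that have none. With at least 3 UMIs it was -7.02 ± 7.49, with an exact permutation p = 0.5, so the libraries did not all go the same way. No paired analysis was possible because there are no 2 groups of samples whose replicate numbers could be matched. The differences were all taken within a library. Causes were not tested. Replicate 3, with 172 TRBJ1 rearrangements, limits the values of single genes: TRBJ1-5 rests on 8 there.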
